A study of Mus musculus with 4 samples.

Results

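The Abcb1b Hao2 cells are ovarian cells that carry the transcripts of at least 4 of 8 marker genes, namely Abcb1b, Hao2, Dync1i1, Adh1, Mgarp, Folr1, Coro2a and Aldh1a1, without the transcripts that mark granulosa, Cyp17a1 theca, luteal or Asb4 Enpep cells. They numbered 5019 of the 47782 cells kept from 4 single-cell RNA libraries, or 10.5%, of which 428 and 2687 came from Fosl2F/F 1 and 2 and 1295 and 609 from Fosl2cKO 1 and 2. A cell was kept with at least 500 detected genes, more than 1000 unique molecular identifiers (UMIs, each standing for 1 captured transcript) and less than 10% of UMIs from mitochondrial genes. A member also had fewer than 3 Cyp17a1 UMIs, fewer than 10 UMIs of Inhba and Amh together per 10000, fewer than 3 of 5 luteal genes (Hsd17b7, Runx2, Bhmt, Rgs7 and Lrrn1) and fewer than 4 of 5 genes of another stromal class (Asb4, Enpep, Lamc3, Hhip and Tmem100).

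The ovaries came from 8-week-old female mice of 1 litter, either Fosl2flox/flox (Fosl2F/F, the control) or Cyp19a1-Cre; Fosl2flox/flox (Fosl2cKO), so that both groups carried the floxed Fosl2 alleles and differed by the Cre transgene. The Cre is driven from Cyp19a1, the aromatase gene of granulosa cells, and removes exons 2 to 4 of Fosl2, an AP-1 transcription factor. Whole ovaries were dissociated and loaded for 3′ tag sequencing, with 2 libraries a group. The study gives its replicates as females of each group, but neither it nor the labels tie each library to an animal of its own. Each p-value below therefore measures the spread between libraries, which may hold technical as well as animal differences.

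Steroidogenic cells of the ovarian interstitium lie between the follicles. They derive in part from the theca of follicles that were lost and take up or make cholesterol, which Star carries into mitochondria, Cyp11a1 cleaves to pregnenolone and Hsd3b1 turns into progesterone. Theca cells go on to androgens through Cyp17a1, and luteal cells stop mainly at progesterone. Of the markers, Abcb1b encodes a drug and lipid efflux pump of the ABC family, Hao2 a peroxisomal hydroxy acid oxidase, Adh1 and Aldh1a1 a retinol and a retinal dehydrogenase, Mgarp a mitochondrial protein of steroidogenic tissues, Folr1 a folate receptor, Dync1i1 a dynein intermediate chain and Coro2a an actin-binding coronin.

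Each library held 120327227 to 148836173 UMIs in 8654 to 28155 barcodes, and any 2 libraries shared 12 to 49 barcodes. The second Fosl2F/F library stood apart in depth, with a median of 3970 UMIs per kept cell against 11380 to 12885 in the other 3, and its members had a median of 4724 UMIs against 13748 to 19311. More of the 8 markers can be detected in a deeper cell, so levels are given in UMIs per 1000000 UMIs of the summed cells (CPM), and shares also at 1 fixed depth. The limits on Cyp17a1, luteal and Asb4 Enpep genes are raw counts too, so a shallow or thinned cell can pass them more easily. Values per library are given in the order Fosl2F/F 1, Fosl2F/F 2, Fosl2cKO 1 and Fosl2cKO 2.

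Fosl2 itself, the targeted gene, stood at 176, 179.8, 197 and 106 CPM in granulosa cells, where the Cre is active. The first library labelled Fosl2cKO was thus not below the Fosl2F/F libraries, and its group is named here by its label alone. Among the Abcb1b Hao2 cells Fosl2 stood at 232, 311, 266 and 269 CPM, and the groups overlapped. A 3′ tag count can also read what is left of a recombined gene, so these levels do not measure recombination. Cyp19a1, which drives the Cre, stood at 5.63, 3.35, 5.79 and 3.74 CPM in the members.

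The members were not 1 kind of cell. Clustering of the 5019 cells gave 10 subgroups, and 3 of them, numbered 1, 2 and 4, had a median of 6 or 7 of the 8 markers while the others had 4 or 5. These marker-rich subgroups held 3009 cells, 60.0% of the members, with a high doublet score in 3.3998% and 7.14% of the cells of subgroups 1 and 2 and in 0 of the 717 cells of subgroup 4, which allows a share of up to 0.418%. They were set apart after their values were seen, and clusters were built from the same genes, so their levels are described without a test. The genotype tests given for them below are on a class picked in this way and were not planned.

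Subgroup 1, with 1353 cells, was led by Klhl14 (74.02 against 15.9 CPM in the other members), 9130230L23Rik, Gabrb1, a GABA receptor subunit, Serpina5, a protease inhibitor, and Dlgap1. It drew 1304 cells from the second Fosl2F/F library and 8, 24 and 17 from the others. Subgroup 4, with 717 cells, was led by Adh1 (251 against 47.6 CPM), Atp2b3, a calcium pump, Tmem200a, Trank1 and Pkdcc, and drew 125, 3, 372 and 217 cells. Between these 2 subgroups the cells of the shallow library lay almost all in subgroup 1 and most cells of the others in subgroup 4, so library and subgroup cannot be told apart there. The remaining members of each library were spread over the other subgroups, and of all members of the shallow library 48.5% were in subgroup 1. Klhl14 and Tmem200a stood among the 10 leading genes of both.

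Subgroup 2, with 939 cells, came from every library, with 87, 463, 273 and 116 cells. It was led by Pik3c2g (164 against 10.7 CPM), a lipid kinase, Gpx3 (2608 against 190.3 CPM), the secreted glutathione peroxidase, Cxcl12, a chemokine, Mamdc2 and Ecm1. This subgroup also held the highest summed level of the luteal marker list among the marker-rich subgroups, 9817 CPM against 6300.3 and 6737 CPM in subgroups 1 and 4. That list was partly used to leave cells out.

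The other 7 subgroups, 2010 cells, were led by genes of other cell types. Subgroup 3 (724 cells) was led by Myh11, Acta2 and Tagln, contractile genes of smooth muscle, with Pdgfra and Lama2. Subgroup 5 (528 cells) was led by Slc38a5, Apoa4, Kcnq5, Fshr, the follicle-stimulating hormone receptor, and Cnmd, and subgroup 7 (200 cells) by Cdh12, Gatm, Nell1, Chst9 and Krt79. Subgroup 6 (207 cells) was led by Upk3b, Lgals2, Krt19, Muc16 and Msln, known from the ovarian surface epithelium. Subgroup 8 (151 cells) was led by C1qc, C1qa, C1qb, Lyz2 and Ctss of macrophages, and subgroup 10 (80 cells) by Cldn5, Flt1, Ctla2a, Selp and Emcn of endothelium. Subgroup 9 (120 cells) was led by Akr1c18 (1674 against 3.79 CPM), which inactivates progesterone in the corpus luteum, Onecut2, Ramp1, Gm13481 and Dpp10.

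High doublet scores were most frequent in these 7 subgroups. They marked 48.8% of subgroup 3, 61.5% of subgroup 7, 60.9% of subgroup 8 and 70.0% of subgroup 10, and 28.0%, 24.6% and 25.0% of subgroups 5, 6 and 9. The number of cells with a high score was set per library at 0.8% of the kept cells for every 1000 of them, which fixed 7.03%, 19.5%, 5.74% and 6.01% of the kept cells, and 6.78%, 27.1%, 11.1% and 10.8% of the members fell among these. With its own threshold the scoring tool marked fewer, 335, 3179, 204 and 241 of the kept cells in place of 617, 4732, 412 and 451. The leading genes of these 7 subgroups went against the label of interstitial steroidogenic cells, and the marker-rich subgroups carried the steroidogenic genes at the levels given below. Steroidogenic transcripts were also detected in the 7 subgroups, Cyp11a1 in 76.3% to 95.8% and Hsd3b1 in 79.2% to 99.2% of their cells. In the marker-rich subgroups each was detected in 99.7% to 100% of the cells. A position between follicles cannot be read from dissociated cells.

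**Figure D1:**
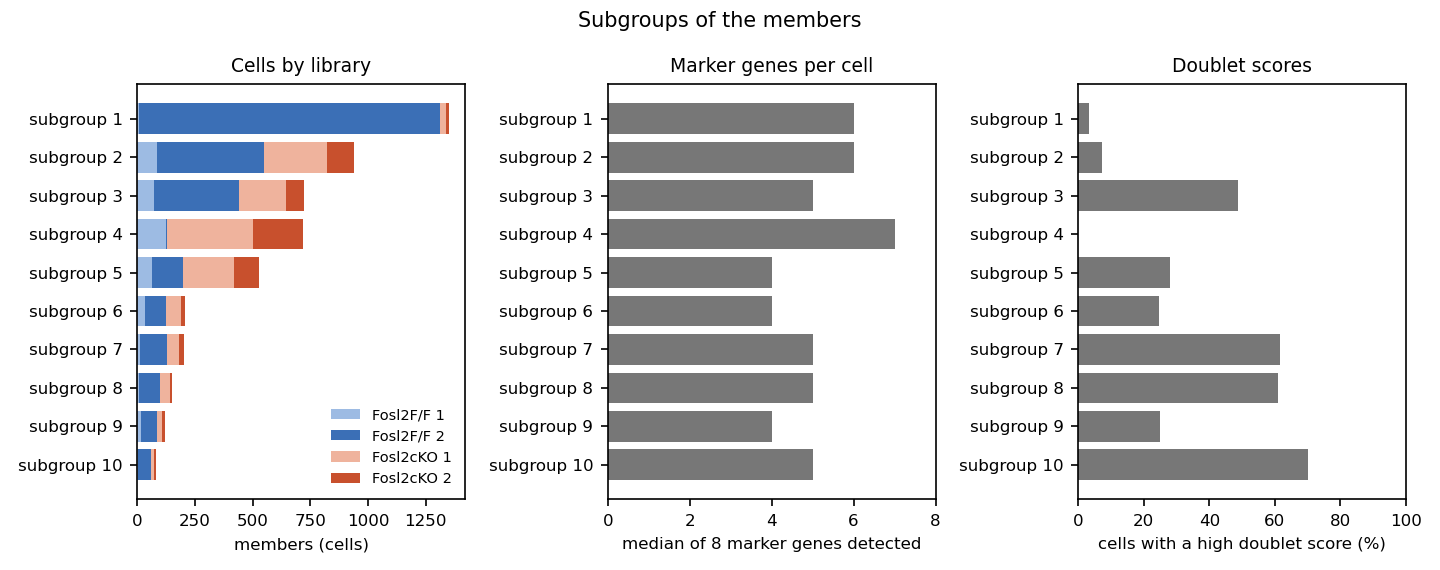
Bars for each of the 10 subgroups of the members show the number of cells by library (left), the median number of the 8 marker genes detected per cell (middle) and the percentage of cells with a high doublet score (right). Subgroups 1, 2 and 4 reach a median of 6 or 7 markers with doublet scores in under 10% of cells, subgroup 1 is almost wholly from Fosl2F/F 2, and subgroups 3, 7, 8 and 10 have the highest doublet shares.

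All 8 markers were used to choose the members, so their levels describe the choice. Abcb1b stood at 1214, 877, 1455 and 1409 CPM in the marker-rich subgroups and at 548, 563, 709.5 and 659 CPM in the members as a whole. Cyp17a1 theca cells, taken as cells with at least 3 Cyp17a1 UMIs and no granulosa or luteal call, held 20.3, 106, 65.5 and 53.9 CPM, so each of the 4 libraries separated theca from the marker-rich subgroups for this gene. Luteal cells, taken with at least 3 of the 5 luteal genes, were between them at 704, 262, 582 and 408 CPM. Abcb1b has a near-identical neighbour, Abcb1a, which stood at 16.3 to 30.99 CPM, and reads that fit both genes could have been lost or split in counting.

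Hao2 stood at 408, 573, 529.6 and 595 CPM in the marker-rich subgroups against 180.5, 193, 327 and 199.8 CPM in theca cells and 134, 122, 169.5 and 104 CPM in luteal cells. Dync1i1 reached 1064 to 1681 CPM against 286 to 333 CPM in theca cells. Mgarp reached 2255 to 3188 CPM against 724 to 1056 CPM, and Folr1 262 to 331 CPM against 111 to 194 CPM. For these genes every library of the marker-rich subgroups was above the theca libraries. Coro2a was rarer at 62.9, 144, 103 and 139.6 CPM, with theca cells at 5.59 to 18.03 CPM.

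The retinoid enzymes of the rule overlapped between the marker-rich subgroups and theca cells. Aldh1a1 stood at 2149.8, 1857, 2227 and 2309 CPM against 2372, 1572, 3028 and 1933 CPM in theca cells, and Adh1 at 136, 114, 186 and 127 CPM against 47.1, 32.6, 195 and 31.6 CPM. Adh1 was thus well above theca cells in 3 libraries, and the exception was the first library labelled Fosl2cKO, whose theca class held 23 cells. Both were low in Asb4 Enpep cells, at 185 to 228 CPM for Aldh1a1 and 2.09 to 6.42 CPM for Adh1. Of the 8 markers, 6 were thus higher than in theca cells in all 4 libraries, and all 8 were higher than in luteal cells and in Asb4 Enpep cells.

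**Figure D2:**
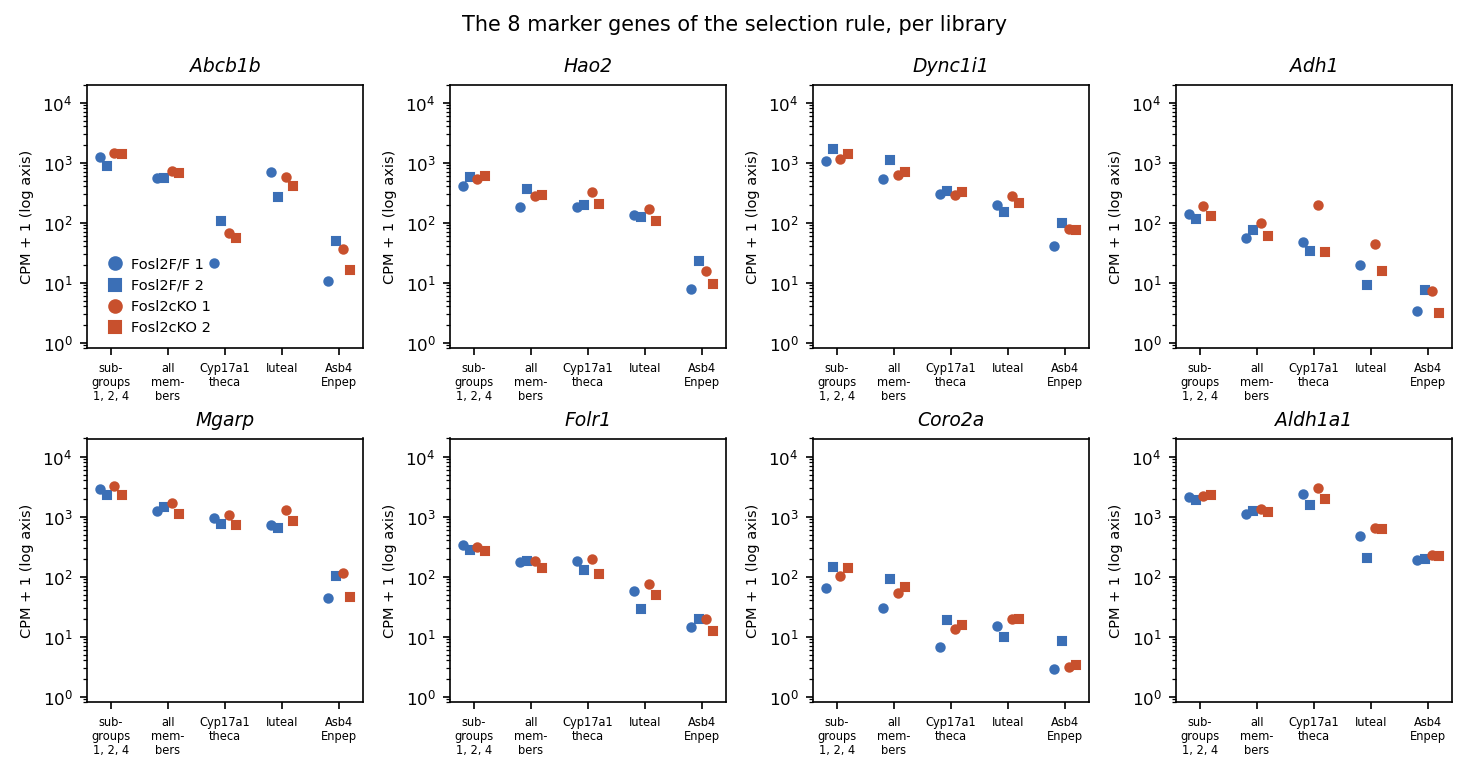
Each panel plots 1 of the 8 marker genes as CPM plus 1 on a log axis, with 1 point per library (blue Fosl2F/F, red Fosl2cKO, circle replicate 1, square replicate 2), in the marker-rich subgroups, all members, Cyp17a1 theca, luteal and Asb4 Enpep cells. Abcb1b is far lower in theca cells than in the marker-rich subgroups in every library, while Aldh1a1 lies close in both and Adh1 is higher in the marker-rich subgroups in 3 of 4 libraries.

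Free RNA adds some of every abundant transcript to every droplet. Shares of cells with an Abcb1b or Hao2 UMI are therefore set beside those in macrophages. Whether macrophages make these transcripts themselves was not tested. Of the other markers, Coro2a was found without thinning in 17.2%, 5.81%, 16.8% and 16.7% of macrophages and Adh1 in 0%, 0.628%, 1.08% and 0%. With each cell thinned to 2000 UMIs, an Abcb1b UMI was found in 64.02%, 66.4%, 77.004% and 68.7% of the cells of the marker-rich subgroups and in 7.801%, 7.29%, 7.89% and 6.19% of macrophages, and in 2.44%, 10.9%, 8.696% and 6.12% of theca cells. The Abcb1b share in theca cells was below that in macrophages in the first Fosl2F/F library, slightly below in the second library labelled Fosl2cKO and above it in the other 2. Without thinning, the shares for Abcb1b were 82.7%, 79.4%, 96.1% and 90.3% in the marker-rich subgroups and 25.5%, 14.1%, 29.7% and 24.5% in macrophages, at median depths of 12348, 3751, 16606 and 11534 and 8661, 2842, 9410.0 and 8842 UMIs. Hao2 was found after thinning in 41.1%, 58.2%, 54.3% and 56.5% of the marker-rich cells and 2.13%, 1.82%, 0.376% and 0.476% of macrophages. Abcb1b and Hao2 are among the 8 markers whose detection chose the members, which raises their shares in the marker-rich cells by construction. The gap to macrophages therefore does not measure free RNA. The macrophage class leaves out members by construction, and it holds no cell that met the marker rule. Its shares of Abcb1b and Hao2 were lower than those without this limit. Taking every cell with at least 4 macrophage genes, members and other classes included (166, 764, 335 and 229 cells), the shares after thinning were 8.02%, 11.6%, 12.1% and 6.28% for Abcb1b and 3.09%, 4.52%, 2.795% and 1.35% for Hao2, and 11.4%, 35.9%, 8.66% and 11.8% of these cells had a high doublet score.

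The values on each side of the limits of the rule were as follows. The 1329 members with 4 markers detected had 102 CPM of Abcb1b, 38.9 CPM of Hao2 and 281 CPM of Mgarp, and the 2549 cells with 3 markers that met the other limits had 43.7, 17.8 and 160.1 CPM. With 5, 6, 7 and 8 markers there were 1110, 1016, 935 and 629 members. At the Cyp17a1 limit, the 123 members with 2 UMIs had 236 CPM of Hao2 and the 86 cells outside with 3 UMIs had 339 CPM. The luteal limit ran through cells of like marker levels, with Abcb1b at 919 CPM in 1221 members with 2 luteal genes and at 1027 CPM in the 551 cells with 3. At the Asb4 Enpep limit, Abcb1b stood at 209 CPM in 129 members and 132 CPM in 126 cells outside, and at the Inhba and Amh limit at 94.99 CPM in 251 members and 72.8 CPM in 160 cells outside.

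The marker genes were also frequent outside the members. At least 4 of the 8 were detected in 1035 of 1518 theca cells (68.2%), 1370 of 2564 luteal cells (53.4%), 1835 of 8097 granulosa cells (22.7%) and 240 of 2478 Asb4 Enpep cells (9.69%). Luteal cells with at least 4 markers held 928, 317, 739 and 695 CPM of Abcb1b and those with fewer 115, 126, 49.6 and 11.4 CPM, a gap in the direction that the split itself sets, since Abcb1b is 1 of the 8. Ltbp1, which was not used for the split and leads luteal cells over the marker-rich subgroups, stood at 993 to 2502 CPM in the first and 1004 to 3479.5 CPM in the second.

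Steroidogenic enzymes were compared per library as a description, since members were chosen on expression. Of 14 listed enzymes and carriers with at least 5 CPM, 6 were higher and 3 lower in the marker-rich subgroups than in theca cells in all 4 libraries, where 2473 and 3080 of 11089 genes were. The median log2 ratio was 0.43 for the list and -0.04 for all genes. Star stood at 824, 807, 1326 and 878 CPM against 96.5, 391, 261 and 133 CPM in theca cells, with no overlap. Cyp11a1 stood at 8402, 6132, 5497 and 6126 CPM against 3269 to 6803 CPM, and Fdxr, which feeds it electrons, at 548, 423, 646 and 432 CPM against 302 to 463 CPM. Hsd3b1 stood at 3659.9, 3480.4, 4097 and 4286 CPM against 2121 to 3276 CPM in theca and 1870.5 to 3518 CPM in luteal cells. Hsd3b1 has near-identical relatives in the same gene cluster, and reads shared with them are uncertain.

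Cyp17a1, the androgen-forming lyase, was limited by the rule to 2 UMIs a cell. It stood at 14.3, 21.004, 0.379 and 16.8 CPM in the marker-rich subgroups, at 4163, 2132, 191 and 2055 CPM in theca cells, and at 256, 129.7, 6.97 and 164 CPM in all other kept cells. The first library labelled Fosl2cKO was lowest in each class, and its theca class held 23 cells. Srd5a1, a 5-alpha reductase of androgens and progestins, stood at 42.9, 118, 130.3 and 99.2 CPM against 13.02 to 36.1 CPM in luteal cells, and theca cells at 60.95 to 79.1 CPM overlapped with it. Cyb5a, which favours the lyase step of Cyp17a1, was lower than in theca cells in all 4 libraries, at 263, 196, 191 and 194 CPM against 286, 255, 292 and 227 CPM.

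**Figure D3:**
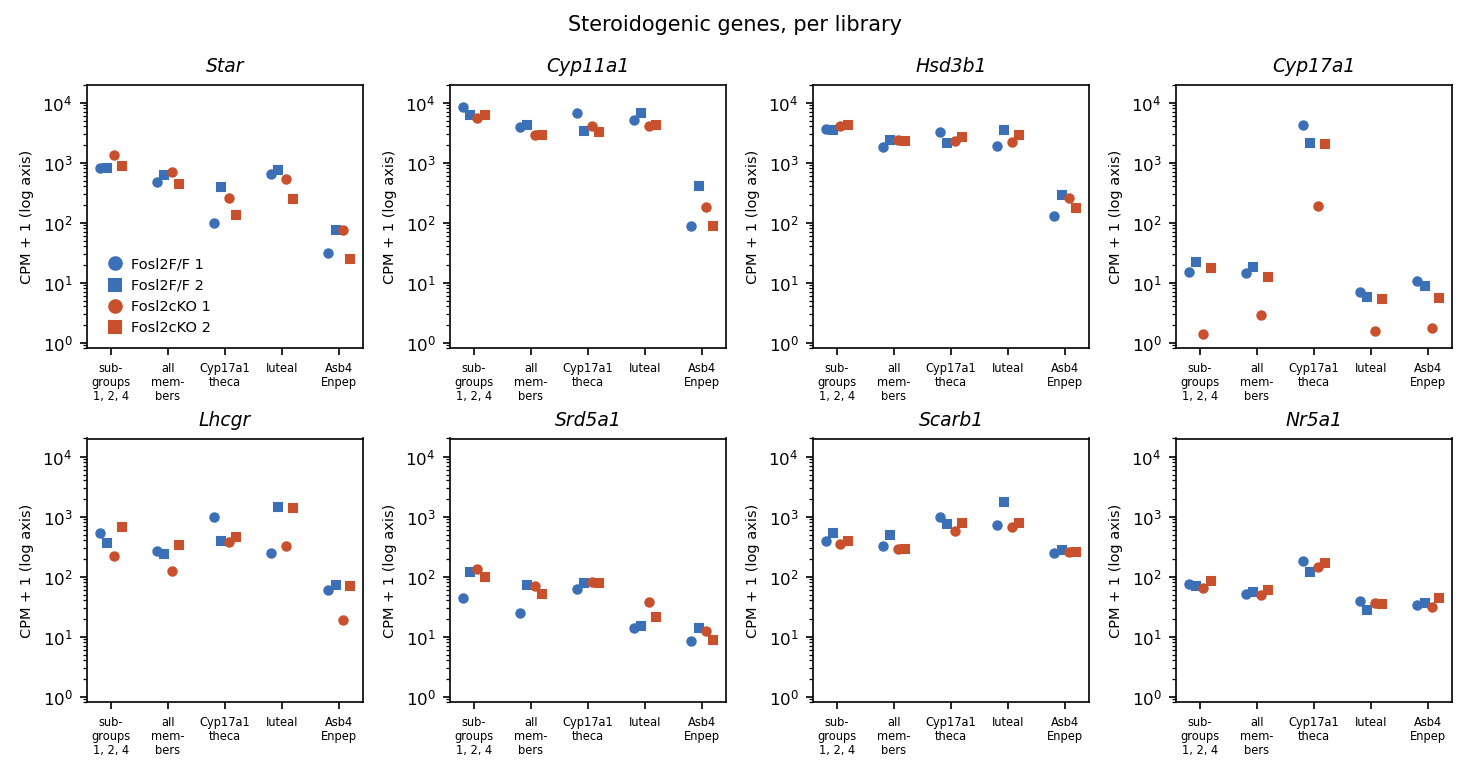
Each panel plots 1 steroidogenic gene as CPM plus 1 on a log axis, with 1 point per library (blue Fosl2F/F, red Fosl2cKO, circle replicate 1, square replicate 2), in the marker-rich subgroups, all members, Cyp17a1 theca, luteal and Asb4 Enpep cells. Star, Cyp11a1 and Hsd3b1 are high in the marker-rich subgroups in every library, while Cyp17a1, which the rule limited, lies at 0.379 to 21.004 CPM there and at 191 to 4163 CPM in theca cells.

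Receptors and regulators of steroidogenesis were mostly lower than in theca cells, with 4 of 21 measured genes higher and 12 lower in all 4 libraries. Prlr, the prolactin receptor, stood at 1978, 1919, 1435 and 2176 CPM against 969 to 1058 CPM in theca cells, and Esr1, estrogen receptor alpha, at 329, 595, 365 and 325 CPM against 168, 226, 117 and 239 CPM. Insr was also higher. Nr5a1, the steroidogenic factor, was lower at 74.8, 68.6, 64.03 and 82.3 CPM against 183, 119, 145 and 168 CPM, and Gata4 at 229 to 297 CPM against 353 to 447 CPM. Gata6 stood at 5.46 to 9.79 CPM against 113 to 212 CPM in luteal cells, and Nr5a2 at 14.02 to 41.8 CPM against 366 to 849.8 CPM, so both luteal regulators were far lower in the marker-rich subgroups. Lhcgr, the luteinizing hormone receptor, stood at 536, 364, 222 and 657 CPM, which overlapped with theca cells at 1000.1, 393, 379 and 452 CPM.

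Cholesterol synthesis genes were lower than in theca cells, with 1 of 21 higher (Ebp) and 12 lower in all 4 libraries, and higher than in Asb4 Enpep cells, with 20 of 21 higher where 3877 of 11514 genes were higher and 4384 lower. Of 22 genes of cholesterol uptake, storage and transport, 5 were higher and 10 lower than in theca cells. Tspo, the mitochondrial translocator protein, stood at 515, 323, 575 and 296 CPM against 104 to 131 CPM, and Plin2, a lipid droplet coat protein, at 143, 90.3, 107 and 94.3 CPM against 106, 71.8, 92.8 and 77.5 CPM. Scarb1, the receptor that takes up cholesterol esters from HDL, was lower at 394, 524, 344 and 394 CPM against 966, 749.5, 566 and 795 CPM, and luteal cells reached 672 to 1769.7 CPM.

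Retinoid genes were found on both sides. Of 18 measured, 5 were higher and 7 lower than in theca cells in all 4 libraries. Aldh1a2, which makes retinoic acid, stood at 201, 177, 249.6 and 172 CPM against 34.7, 74.1, 54.6 and 43.6 CPM, and Rarb, a retinoic acid receptor, at 16.3, 4.77, 11.1 and 13.3 CPM against 2.201, 3.005, 0 and 5.25 CPM. Cyp26b1, which degrades retinoic acid, stood at 0, 0.597, 0.227 and 0.215 CPM against 30.3, 10.5, 4.09 and 33.96 CPM, which is at or near 0 in the marker-rich subgroups.

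Folate and ABC transport genes numbered 13, with 6 higher and 5 lower than in theca cells. Beside the rule genes Abcb1b and Folr1, the higher ones were Abcb1a, Abcc4, the folate carrier Slc46a1 and Ggh, which trims folate polyglutamates and stood at 339, 367, 559 and 362 CPM against 325, 219.7, 188 and 219 CPM. Those lower included Slc19a1, the reduced folate carrier, and Fpgs, which lengthens the glutamate tail of folate. Of 13 peroxisomal genes 6 were higher and 3 lower. The higher ones included Hao2, which the rule used, and Acaa1a, a thiolase of fatty acid oxidation. Acaa1a stood at 84.2, 69.8, 73.8 and 62.9 CPM against 73.7, 49.4, 47.7 and 52.7 CPM.

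Antioxidant genes were more often higher than lower. Of 24 measured, 10 were higher and 5 lower than in theca cells, and 18 were higher and 3 lower than in Asb4 Enpep cells, in all 4 libraries, where 3877 and 4384 of 11514 genes were. Gpx3 stood at 2756, 867, 1162 and 1047 CPM against 64.8, 82.6, 81.8 and 57.5 CPM in theca cells and 1539, 469, 731 and 801 CPM in luteal cells. Mgst1, a membrane glutathione transferase, stood at 1829, 865, 999 and 854 CPM against 613, 349, 434 and 336 CPM, and Gpx1 at 583, 406, 528 and 332 CPM against 179, 155, 201 and 126 CPM. Gsta2 went the other way, at 18.6, 6.56, 7.96 and 11.4 CPM against 218, 83.4, 127 and 99.8 CPM. The first Fosl2F/F library was the highest for Gpx3 and Mgst1 in the marker-rich subgroups.

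The genes that led the marker-rich subgroups over all other kept cells in every library were Adh1 (ratio 14.5 to 18.8 over the 4 libraries, with 1 CPM added to both sides), Gm36201, Coro2a, Gm20125, Dync1i1 and Abcb1b (10.8 to 23.6). Behind them came Trank1, Thsd7b, Dnajc15, AU021092, Gm6980, Osgin1, Tmem178, Wnt5a, a secreted Wnt ligand, Aldh1a2 and Tbx3, a T-box transcription factor, with Folr1, Mgarp, Hao2 and Aldh1a1 of the rule. All 8 rule markers were thus among these 20 genes, which the rule itself favours. Wnt5a stood at 117, 116, 152 and 140.3 CPM against 53.3, 39.1, 35.5 and 39.98 CPM in theca and 49.8, 28.7, 48.3 and 35.4 CPM in luteal cells.

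Against theca cells the leading genes were Pik3c2g (142, 38.3, 74.9 and 104 CPM against 1.15 to 4.09 CPM), Gpx3, Thsd7b (117 to 178 CPM against 1.02 to 11.1 CPM), Tmem178 (292 to 399 CPM against 5.76 to 30.3 CPM), Abcb1b, Coro2a, Rcan2, Mgst2, Sbsn and Efemp1. Theca cells were led over them by Cyp17a1, Hhip, Kcnip1, Stk32a, Sct, Enpep, Asb4, Rtl4, Gsta2 and Lama2. Hhip, a hedgehog-binding protein, stood at 3.33, 3.103, 3.71 and 4.296 CPM in the marker-rich subgroups and 148, 119, 95.5 and 219 CPM in theca cells, and Sct, secretin, at 2.99, 2.27, 1.52 and 3.22 CPM and 124, 44.2, 51.8 and 76.8 CPM. Cyp17a1, Hhip, Enpep and Asb4 were among the genes the rule used.

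Against luteal cells the marker-rich subgroups were led by Lsamp (158, 245, 233 and 273 CPM against 26.8, 27.7, 32.98 and 48.9 CPM), a cell adhesion protein, Trank1, Npas3 (100.5, 178, 81.8 and 155 CPM against 12.5, 20.96, 14.3 and 30.5 CPM), Serpina5, Smpx, Fxyd1, Tbx3, Coro2a, Gm36201 and Adh1. Luteal cells were led by Ltbp1 (1044, 1513, 1065 and 2912 CPM against 25.6, 29.95, 19.2 and 17.8 CPM), which binds latent TGF-beta, Dpysl4, Stxbp6, Mapk10, Nr5a2, Shisa6, Gata6, 2610307P16Rik, Galnt18 and Igfbp5. None of those luteal leaders was a rule gene. Against Asb4 Enpep cells the leaders were Hao2, Thsd7b, Mgarp, Gm36201, Abcb1b, Coro2a, Gm20125, Nckap5, Gpx3 and Mgst2, and that class was led over them by its 5 rule genes, Tmem100, Enpep, Hhip, Asb4 and Lamc3, with Wfdc1, Mdk, Tcf21, St6galnac3 and Prkg1.

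Matrix and proliferation genes were mostly lower than in theca cells. Of 20 matrix genes, 16 were lower and 3 higher than in theca cells in all 4 libraries, with a median log2 ratio of -1.75. Col1a2, a fibrillar collagen chain, stood at 39.6, 33.8, 105 and 32.6 CPM against 637, 580.1, 401 and 844 CPM in theca and 2003, 1577, 1906 and 2087 CPM in Asb4 Enpep cells, and Dcn, decorin, at 14.97, 25.5, 38.9 and 13.7 CPM against 94.3, 125, 79.1 and 114 CPM. Of 17 cell cycle genes, 15 were lower than in theca cells and 10 lower than in luteal cells, where 3664 of 11224 genes were lower than in luteal cells, and the 1 gene higher than in theca cells in all 4 libraries was Cdkn1b, the p27 inhibitor, at 279, 294, 361 and 361 CPM against 92.95, 149.8, 259 and 135 CPM. Mki67 stood at 1.66, 4.296, 3.11 and 3.01 CPM against 11.5, 19.8, 25.9 and 29.3 CPM, and Ccnd1, cyclin D1, at 1.996, 1.67, 0.909 and 0.644 CPM against 16.1, 14.1, 10.9 and 14.99 CPM.

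Genes of the hedgehog, IGF and BMP pathways, by which follicles act on their surroundings, were mostly lower, with 11 of 19 lower and 4 higher than in theca cells. Hhip, a hedgehog gene lower than in theca cells in all 4 libraries, was used by the rule to leave cells out. Ptch1, the hedgehog receptor and target, stood at 46.2, 55.97, 46.7 and 53.3 CPM against 115, 122, 102 and 188 CPM in theca and 352, 396, 481 and 667 CPM in Asb4 Enpep cells. Igf1 stood at 8.65, 6.92, 4.24 and 4.08 CPM against 12.4, 26.7, 31.4 and 20.6 CPM, while Igfbp2, which binds IGFs, stood at 54.6, 35.1, 110.1 and 154 CPM against 33.5, 12.02, 38.2 and 60.2 CPM. Mgarp, Bnip3, Ndrg1 and Tfam were the higher genes of 11 hypoxia and mitochondrial genes, and Epas1 was the lower one. Mgarp was used by the rule, so its higher level was set by the choice of cells. Of the AP-1 genes, 5 of 11 were higher and 1 was lower, and Fosl2 stood at 318, 327, 318 and 398 CPM.

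In the genome build of the files, GRCm38, Hao2 lies on the minus strand at chr3:98874521-98893239, and its neighbour Hsd3b1 on the same strand at chr3:98852194-98859794, 14.7 kb away. Abcb1b lies at chr5:8798147-8866315 on the plus strand. Because Fosl2 is an AP-1 factor and the cells are steroidogenic, the RefSeq promoters (GRCm38.p6, 250 bases before to 50 after a gene start) were searched on both strands for the AP-1 letters TGANTCA and for AAGGTCA, the core bound by Nr5a1 and Nr5a2. A promoter was held for 7 of the 8 markers, all but Folr1, with 9 promoters in all. TGANTCA was found in 1 of the 9, at Aldh1a1, and AAGGTCA in 0, where 7.81% and 4.72% of 32851 promoters hold them. The Aldh1a1 promoter at chr19:20492333-20492632 on the plus strand is shown for that match, which starts 57 bases before the gene start and is in capitals.
Aldh1a1: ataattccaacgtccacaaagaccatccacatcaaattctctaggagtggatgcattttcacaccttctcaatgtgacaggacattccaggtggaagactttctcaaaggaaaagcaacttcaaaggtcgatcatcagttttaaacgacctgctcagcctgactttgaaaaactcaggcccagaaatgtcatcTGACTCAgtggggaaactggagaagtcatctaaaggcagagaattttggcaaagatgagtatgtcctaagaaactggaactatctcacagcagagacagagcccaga

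The question of the design was whether the loss of Fosl2 through Cyp19a1-Cre changes ovarian cells. As a share of the kept cells the members stood at 4.87%, 11.05%, 18.05% and 8.11%, so the mean was 7.96% in Fosl2F/F and 13.1% in Fosl2cKO. The shares overlapped, and the difference of 5.12 percentage points gave p = 0.667 in a two-sided exact permutation test of the 4 libraries, whose smallest possible p is 0.333. With the rule applied to cells thinned to 2000 UMIs the shares were 3.06%, 10.02%, 11.1% and 5.92%, and for the marker-rich subgroups alone 2.51%, 7.28%, 9.32% and 4.66%. The first library labelled Fosl2cKO was the highest and the first Fosl2F/F library the lowest in each of the 3 counts. Without the first library labelled Fosl2cKO the difference was 0.151 points. Of the members, theca, luteal and Asb4 Enpep cells together, the members were 33.4%, 45.8%, 59.2% and 27.2%. The theca class among these held 293, 825, 23 and 377 cells. A member had fewer than 3 Cyp17a1 UMIs, and Cyp17a1 was lowest in the first library labelled Fosl2cKO in each class given above. That limit can thus leave more theca-like cells among its members, and how many was not tested.

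**Figure D4:**
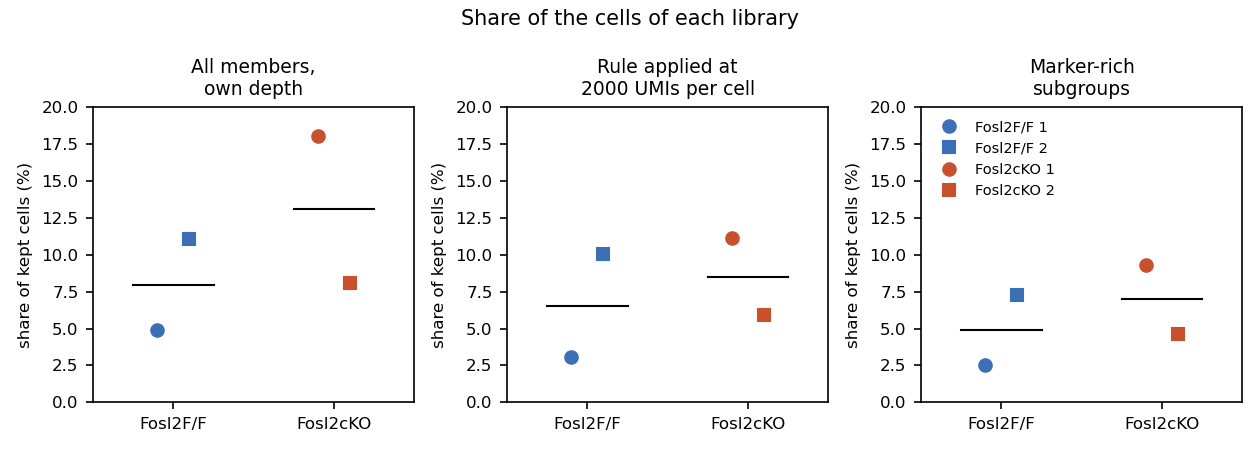
The 3 panels plot the share of kept cells (percent) that were members, members after thinning each cell to 2000 UMIs, and cells of the marker-rich subgroups, with 1 point per library and a line at the mean of each genotype. The genotypes overlap in every panel, and Fosl2cKO 1 is the highest library in each.

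Genes were tested between genotypes on the UMIs summed over members per library. Of 15566 genes tested, 25 were called (0.161%), with an edgeR adjusted p under 0.1 and a change of more than 0.25 on the log2 scale. In the libraries labelled Fosl2cKO 14 of them were higher (0.0899%) and 11 lower (0.0707%), and 967 genes (6.21%) had an unadjusted p under 0.05. The calls moved with the libraries used, with 2 calls without the first Fosl2F/F library, 0 without the second (where 1874 genes had an unadjusted p under 0.05), and 267 and 266 without the first and the second Fosl2cKO library. Each of these fits leaves 1 library in a group, which is assumed to vary like the other group. The sign of all 25 genes was the same in each of them. The genotypes did not overlap for 4915 genes (31.6%). In the marker-rich subgroups alone 10 of 12795 genes were called (0.0782%), all of them higher, with 0 calls lower by edgeR and 4 by DESeq2 (A730049H05Rik, Epha3, Pappa and Uchl1), where 506 genes (3.95%) had an unadjusted p under 0.05, 339 higher and 167 lower, and the genotypes did not overlap for 3738 genes (29.2%). These 10 calls became 0 without the first Fosl2F/F library, 57 (22 higher, 35 lower) without the second, and 85 (62 higher, 23 lower) and 115 (39 higher, 76 lower) without the first and the second Fosl2cKO library, so the one-sided split was not kept. Subgroups 1 and 4 without subgroup 2 gave 39 calls of 11850 genes (0.329%), 26 higher (0.219%) and 13 lower (0.110%).

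Plb1, a phospholipase B gene that lies 74.9 kb from Fosl2 on chromosome 5, had the smallest adjusted p. It had 3 and 2 UMIs in the members of Fosl2F/F 1 and 2 and 4496 and 2179 in those labelled Fosl2cKO, or 146 and 199 CPM, with an edgeR adjusted p = 3.99e-05. With so few control UMIs no fold is given. The marker-rich subgroups held a small part of it, since subgroup 5 held 53.1% and subgroup 9 27.2% of its UMIs in the members and the marker-rich subgroups 9.73%, at 0.333 and 0 against 24.4 and 70.2 CPM. Plb1 stood at 0.744, 0.282, 1012 and 1907 CPM in luteal, 0.0589, 0.0463, 945 and 322 CPM in granulosa and 0, 0.781, 47.1 and 18.3 CPM in macrophages. Asb4 Enpep cells held 0.155, 0, 23.5 and 18.97 CPM. In the first library labelled Fosl2cKO the marker-rich subgroups were below macrophages and close to Asb4 Enpep cells, and in the second they were above both. How much of these levels is free RNA was not tested. Gm36840, an antisense gene that overlaps Plb1, was also called. The Plb1 promoter at chr5:32238834-32239133 on the plus strand is shown because Plb1 led the calls, with the AP-1 letters, 200 bases before that RefSeq start, in capitals. This start lies inside the longer GENCODE gene model used for the distance, chr5:32232708-32366520, and a second RefSeq promoter of Plb1 held neither motif.
Plb1: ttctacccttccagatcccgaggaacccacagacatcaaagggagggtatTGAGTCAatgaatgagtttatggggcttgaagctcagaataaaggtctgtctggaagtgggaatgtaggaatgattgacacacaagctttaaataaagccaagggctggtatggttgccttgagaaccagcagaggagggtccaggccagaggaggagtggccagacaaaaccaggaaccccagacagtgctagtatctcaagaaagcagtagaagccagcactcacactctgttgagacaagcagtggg

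Cebpd, a C/EBP transcription factor, was called in the members and in the marker-rich subgroups. Its members held 14.9 and 20.9 CPM in Fosl2F/F against 71.03 and 88.8 CPM in Fosl2cKO, without overlap (log2 fold change 2.11, SE 0.25, edgeR adjusted p = 0.0285). Dbp, a transcription factor of the circadian output, held 28.04 and 27.2 CPM in Fosl2F/F against 79.7 and 102 CPM in Fosl2cKO (log2 fold change 1.68, SE 0.23, edgeR adjusted p = 0.0645). In the marker-rich subgroups Dbp held 51.2 and 34.6 CPM in Fosl2F/F against 125 and 175 CPM in Fosl2cKO. Both were higher in both libraries labelled Fosl2cKO, and in all other kept cells Cebpd stood at 14.8, 28.4, 135 and 111 CPM and Dbp at 8.07, 16.9, 35.98 and 36.2 CPM.

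Other genes called higher in the members and in the marker-rich subgroups follow. Rab5if held 37.05 and 47.4 CPM in Fosl2F/F against 124 and 175 CPM in Fosl2cKO (log2 fold change 1.78, SE 0.26, edgeR adjusted p = 0.0649). Glrx5, a mitochondrial glutaredoxin for iron-sulfur clusters, held 23.9 and 25.97 CPM in Fosl2F/F against 70.4 and 115 CPM in Fosl2cKO (log2 fold change 1.85, SE 0.27, edgeR adjusted p = 0.0649), and Scand1, a SCAN domain protein, held 15.9 and 35.7 CPM in Fosl2F/F against 121 and 108 CPM in Fosl2cKO (log2 fold change 2.09, SE 0.34, edgeR adjusted p = 0.0875). Tmem160 and 0610012G03Rik were called as well, with log2 fold changes of 2.36 (SE 0.38) and 1.83 (SE 0.29). All 5 were also called in the marker-rich subgroups, where Tmem160 held 8.65 and 13.6 CPM in Fosl2F/F against 52.4 and 87.8 CPM in Fosl2cKO. In all other kept cells the log2 fold changes were 1.56 for Rab5if, 1.82 for Glrx5, 2.19 for Scand1 and 2.22 for Tmem160, none called there (1 call of 20360 genes, 0.00491%). In theca cells, where 19 of 13200 genes were called (0.144%), 14 higher (0.106%) and 5 lower (0.0379%), all 4 were called higher, with edgeR adjusted p = 0.0845, 0.0467, 0.0113 and 0.0467, and so were Cebpd (adjusted p = 0.0753) and Dbp (adjusted p = 0.0467). Members, theca cells and other cells come from the same libraries, so these are the same 4 libraries measured again. Socs1, a suppressor of cytokine signalling, and Egr4, an early growth response factor, completed the 10 calls of the marker-rich subgroups. Socs1 held 8.32 and 21.96 CPM in Fosl2F/F against 67.2 and 73.7 CPM in Fosl2cKO. Egr4 held 1.66 and 3.34 CPM in Fosl2F/F, from 5 and 28 UMIs, against 15.003 and 12.5 CPM in Fosl2cKO. In the members neither was called (edgeR adjusted p = 0.176 and 0.1245). All other kept cells held 5.73, 11.05, 42.2 and 28.6 CPM of Socs1 and 3.42, 2.85, 11.1 and 9.999 CPM of Egr4.

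Slc26a7, an anion exchanger, was called higher in the members at 22.7 and 28.8 CPM in Fosl2F/F against 70.99 and 77.2 CPM in Fosl2cKO (log2 fold change 1.48, SE 0.22, edgeR adjusted p = 0.0649), and 72.1% of its UMIs lay in subgroup 5, which Fshr and Slc38a5 led. Within subgroup 5 Slc26a7 stood at 44.98, 111, 249 and 183 CPM, without overlap of the genotypes. In the marker-rich subgroups it turned, with a log2 fold change of -0.86 that was not called. Bub1, a mitotic checkpoint kinase, was called higher in the members with a log2 fold change of 1.47. Subgroup 5 held 83.6% of its UMIs. In the marker-rich subgroups Bub1 had 2, 25, 23 and 6 UMIs and the genotypes overlapped, so no fold is given there. Subgroup 5 made up 15.2%, 4.91%, 17.1% and 18.1% of the members.

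Genes called lower in the members had many of their UMIs in subgroup 9, which held 120 cells, 3.74%, 2.49%, 1.85% and 2.13% of the members. Akr1c18 had 205 and 79.5 CPM in Fosl2F/F against 1.203 and 0.182 CPM in Fosl2cKO, with 92.0% of its UMIs in subgroup 9 and 2 UMIs in the second Fosl2cKO library, so no fold is given (edgeR adjusted p = 0.00375). Within subgroup 9 it stood at 4314, 1585, 0 and 0 CPM, and in luteal cells at 1178, 125, 7.74 and 0.479 CPM, so the libraries labelled Fosl2cKO were lower in both. Ptgfr, the prostaglandin F receptor through which luteolysis is set off, held 194 and 146 CPM in Fosl2F/F against 25.5 and 41.7 CPM in Fosl2cKO (log2 fold change -2.39, SE 0.30, edgeR adjusted p = 0.0388), with 51.3% of its UMIs in subgroup 9. Tnc, tenascin C, held 254 and 181 CPM in Fosl2F/F against 67.1 and 56.4 CPM in Fosl2cKO (log2 fold change -1.86, SE 0.26, edgeR adjusted p = 0.0645), with 40.3% there. S100a4 held 119.9 and 66.9 CPM in Fosl2F/F against 23.1 and 16.2 CPM in Fosl2cKO (log2 fold change -2.28, SE 0.32, edgeR adjusted p = 0.0645), and Nupr1, a stress-induced nuclear protein, held 368 and 141 CPM in Fosl2F/F against 50.4 and 34.1 CPM in Fosl2cKO (log2 fold change -2.63, SE 0.43, edgeR adjusted p = 0.0914), with 40.5% and 42.03% of their UMIs there. Lpcat2, which remodels phospholipids, had a log2 fold change of -1.59 (SE 0.23) and 30.7% of its UMIs there. The marker-rich subgroups, mainly subgroup 2, held a share of like size for several of these genes, 42.1% for Ptgfr, 37.7% for Tnc, 46.2% for S100a4 and 29.8% for Lpcat2, and a smaller one for Nupr1 (20.1%) and Akr1c18 (5.24%).

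None of these 6 was called lower in the 3 marker-rich subgroups as 1 class. Akr1c18 had 68, 70, 28 and 0 UMIs there, and no fold is given. The log2 fold changes of the others were -1.14 for Ptgfr, -1.31 for Tnc, -1.77 for S100a4, -2.46 for Nupr1 and -1.35 for Lpcat2. In subgroups 1 and 4 without subgroup 2, 3 of the 6 were called lower, Ptgfr (log2 fold change -2.67, edgeR adjusted p = 0.0231), Nupr1 (-1.72, adjusted p = 0.0455) and Akr1c18 (adjusted p = 0.00929). Akr1c18 also had lower values in Fosl2cKO in macrophages (17.5, 99.2, 1.14 and 0 CPM) and Asb4 Enpep cells (6.996, 36.5, 0 and 0.1903 CPM). Macrophages were lower for Ptgfr (9.12, 23.8, 1.99959 and 5.81 CPM) and Nupr1 (53.3, 83.2, 28.6 and 29.1 CPM) too. In Asb4 Enpep cells Ptgfr was lower (2.64, 17.1, 1.57 and 2.22 CPM) and Nupr1 overlapped (48.5, 55.6, 56.7 and 33.9 CPM). Subgroups 1 and 4 held 1.81% and 0.524% of the Ptgfr UMIs of the members and 1.45% and 1.21% of those of Nupr1. How much of the UMIs of Akr1c18, Ptgfr and Nupr1 in subgroups 1 and 4 is free RNA was not tested. In the 3 subgroups together Ptgfr stood at 246, 59.9, 49.7 and 93.2 CPM, Tnc at 351, 49.9, 94.7 and 70.9 CPM, S100a4 at 198, 23.5, 39.4 and 26.2 CPM, Nupr1 at 239, 31.5, 35.8 and 13.1 CPM and Lpcat2 at 55.9, 14.3, 11.97 and 15.7 CPM. The first Fosl2F/F library was far above the other 3 for each of these 5 genes, and the genotypes overlapped, with the second Fosl2F/F library below both libraries labelled Fosl2cKO for Tnc and S100a4. In luteal cells Ptgfr stood at 1030.4, 476, 192 and 454 CPM, again highest in that library.

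**Figure D5:**
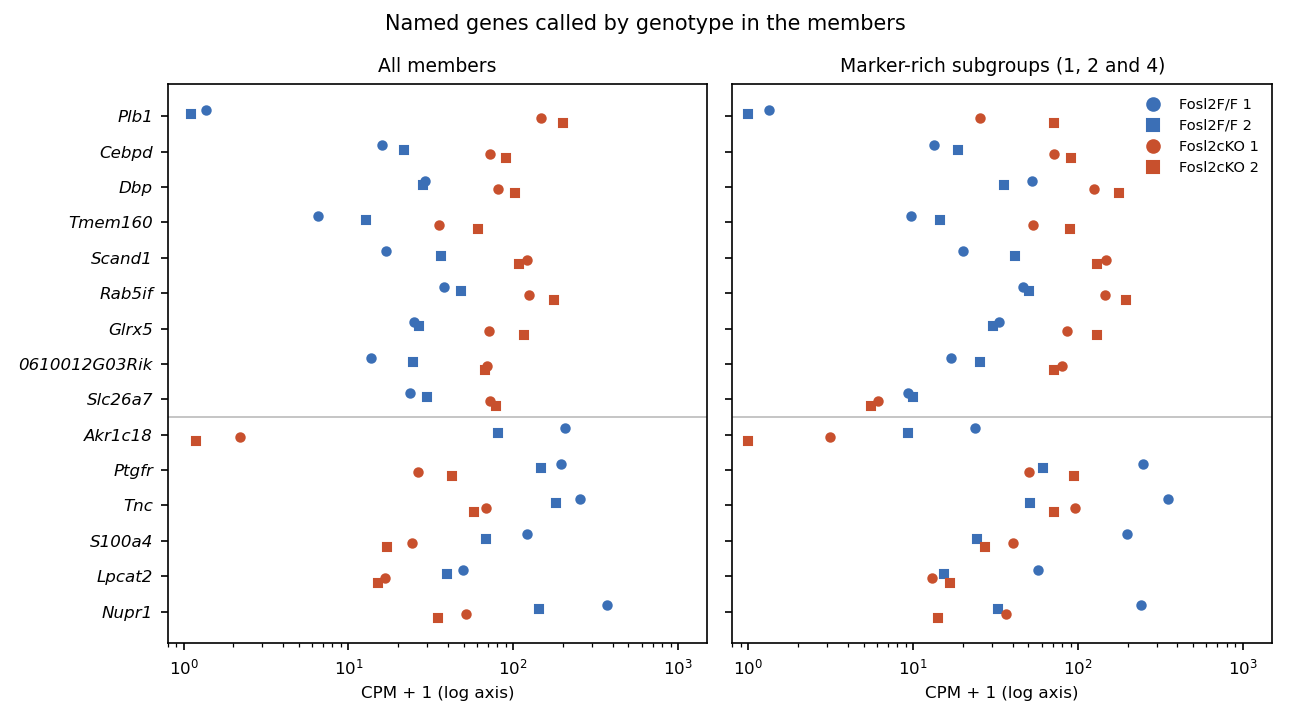
The named genes called between genotypes in the members are plotted as CPM plus 1 on a log axis, with 1 point per library, in all members (left) and in the marker-rich subgroups (right), with genes called higher in Fosl2cKO above the grey line and those called lower below it. Plb1, Cebpd, Dbp and Tmem160 keep the genotypes apart in both panels, while Slc26a7 turns.

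The rule markers chose the members, so their values by genotype are a description without a test. Their median log2 fold change was 0.01 where that of all genes was -0.01, with 0.26 for Abcb1b and 0.02 for Hao2. Of 16 steroidogenic enzymes tested, 1 was called, Akr1c18, and the median was 0.11. Star had a log2 fold change of 0.03 (SE 0.30), Hsd3b1 0.13 (SE 0.29) and Cyp11a1 -0.54 (SE 0.28). In the marker-rich subgroups 0 of 14 enzymes were called by edgeR and the median was 0.12. Of these 14, 8 kept the genotypes apart, where 29.2% of all genes did. An unadjusted p under 0.05 was found for 3 in the lower direction, where 1.31% of all genes had one, and 0 in the higher. Star and Hsd3b1 were higher and Cyp11a1 lower there in both libraries labelled Fosl2cKO, at the levels given above. For Cyp11a1 the second library labelled Fosl2cKO was almost level with the second Fosl2F/F library. For Star the second library labelled Fosl2cKO was only slightly above both Fosl2F/F libraries. In the lists for cholesterol uptake, cholesterol synthesis, retinoids, folate and ABC transport, peroxisomes, antioxidants and matrix, 0 genes were called by edgeR in the members, with unadjusted p under 0.05 in 0, 0, 0, 2, 1, 0 and 0 genes in the higher direction and 0, 0, 2, 0, 0, 0 and 1 in the lower. These lists had 23, 21, 21, 15, 15, 24 and 20 genes tested, and of all genes 3.62% and 2.59% had such a p in the higher and lower direction. In the marker-rich subgroups 0 were called as well, of 22, 21, 18, 15, 14, 24 and 20 genes tested. Such a p was found there in 1, 1, 0, 1, 0, 1 and 2 genes in the higher direction and 0, 1, 0, 0, 0, 0 and 0 in the lower, where 2.65% and 1.31% of all genes had one. Of 20 matrix genes 18 had higher values in Fosl2cKO there, where 6252 of 12795 genes had. Of the 20, 1 kept the genotypes apart, where 29.2% of all genes did.

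Cell cycle genes had higher values in the members of the libraries labelled Fosl2cKO, and none was called. Of 17 tested in the members, 11 had an unadjusted p under 0.05 and were higher in the libraries labelled Fosl2cKO, where 564 of 15566 genes (3.62%) were. Their median log2 fold change was 0.75, against -0.35 in the marker-rich subgroups. Summed over the list, the members held 808, 795, 1224 and 1085 CPM and the marker-rich subgroups 561, 623, 664 and 627 CPM. Beside this, the granulosa marker list summed to 2864, 1761, 3119.6 and 3584 CPM in the members, and its part in the cell cycle counts was not tested.

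Inflammatory and secretory genes of the marker-rich subgroups had 7 of 21 genes at an unadjusted p under 0.05 in the higher direction and 3 in the lower, with 0 called and a median log2 fold change of 0.44. Of all 12795 genes 339 (2.65%) and 167 (1.31%) were so. A list of genes that dissociation induces had 2 of 15 genes at such a p in the higher direction and 1 in the lower in the same cells. Of this list 0 were called, and its median log2 fold change was 0.24. The genotypes did not overlap for 8 of its 15 genes and for 10 of the 21 inflammatory genes, against 29.2% of all genes. The part of the dissociation list in the values of the inflammatory genes was not tested. In the members as a whole the inflammatory list had 3 of 23 genes in each direction and a median of 0.04. Among the higher were Cxcl1 (95.8 and 101 CPM in Fosl2F/F against 174 and 171 CPM in Fosl2cKO), a neutrophil chemokine, Il6 (1.33 and 4.06 CPM in Fosl2F/F against 9.17 and 5.15 CPM in Fosl2cKO), and Icam1 (42.2 and 47.5 CPM in Fosl2F/F against 87.4 and 98.6 CPM in Fosl2cKO), an adhesion molecule. Ccl7, a monocyte chemokine, had a log2 fold change of -1.49. The macrophage marker list summed to 23.3, 53.1, 37.9 and 29.4 CPM in these cells against 18064 to 20043 CPM in macrophages, and none of its 10 genes was at 0.

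Markers of other cells differed between the libraries in the members. Oocyte genes all had lower values in Fosl2cKO, with 8 of 8 at an unadjusted p under 0.05 and a median log2 fold change of -2.71, and 0 called. Of all 15566 genes 403 (2.59%) had such a p in the lower direction. The genotypes were kept apart by 31.6% of all genes and by 2 of the 8 oocyte genes. Their summed level was 44.6, 127, 20.5 and 28.7 CPM in the members, 20.4, 122, 4.86 and 22.3 CPM in macrophages and 29.3, 109, 14.6 and 34.8 CPM in all other kept cells, so the second Fosl2F/F library was highest in each. The epithelial list summed to 1011, 718, 713 and 365 CPM in the members and 8.65, 18.9, 16.6 and 7.09 CPM in the marker-rich subgroups, and hemoglobin to 7.76, 21.5, 1.203 and 114 CPM in the members with Hba-x, Hbb-bh1 and Hbb-bh2 at 0. The endothelial list was at 122, 181, 134 and 82.5 CPM, the smooth muscle list at 347, 226, 197 and 244 CPM, the lymphocyte list at 19.9, 10.2, 7.67 and 7.2996 CPM and the stromal list at 1111, 971, 1190.3 and 978 CPM in the members. Their part in the genotype counts was not tested beyond the counts given for the marker-rich subgroups.

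Whether the genotype difference of the members was unlike that of theca or luteal cells was tested with an interaction term in edgeR. Against theca cells 0 of 14967 genes were called, with 360 at an unadjusted p under 0.05 and 4 calls by DESeq2 (Ereg, Inhbb, Svs5 and Ripor2). Leaving out the first or the second Fosl2F/F library gave 159 and 135 calls, and leaving out either Fosl2cKO library 0. Against luteal cells 0 of 16077 genes were called, with 924 at an unadjusted p under 0.05, 28 calls by DESeq2 and 15 without the second Fosl2F/F library. Slc26a7 had the theca interaction of 1.89 at an unadjusted p = 0.00119 and an edgeR adjusted p = 1. For Cebpd the interactions were 0.25 with theca cells and -0.87 with luteal cells, neither called.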

How the data were processed

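Single-cell libraries of mouse ovary were made with the Chromium 3′ v3 kit and counted by the authors with Cell Ranger against GRCm38 (mm10). The deposited values are UMI counts per gene and barcode, not normalized. The file header names cellranger 7.1.0, which differs from the version in the study's methods, and the submitters' notes Seurat 4.1.0. The methods also describe removal of ambient RNA with CellBender and of doublets with DoubletFinder, and whether the deposited counts are from before or after these steps is not given in the sources used here. Reads that fit several genes are normally dropped by such counting, which lowers genes with near-identical copies.

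The members, subgroups and gene lists were chosen with earlier results of these data known. Counts were loaded in Python 3.11.15 with scanpy 1.11.5. Doublets were scored by simulated doublets at the default expected rate of the tool. The cells with the highest scores were then marked, at 0.8% of the kept cells for every 1000 cells. Marked cells were kept. Members were clustered by Leiden (leidenalg 0.10.2, resolution 0.5) on 2000 variable genes, 20 components and 20 neighbours. UMIs were summed per library and class and given as CPM. Levels between classes carry no test.

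The genotype test was edgeR's quasi-likelihood fit (version 4.0.16, limma 3.58.1, R 4.3.3) after filterByExpr and TMM, adjusted by Benjamini-Hochberg over all genes tested. A gene was called with an adjusted p under 0.1 and a change over 0.25 on the log2 scale. DESeq2 1.42.0 was an alternative. The scripts were tested on simulated counts. The SE of a log2 fold change came from the same fit, so it holds the spread between libraries as well as counting error.

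The text names the genes of the rule, list genes, leading genes by the lowest ratio over the 4 libraries (mean of 50 CPM or more, 1 CPM added), the 5 leading genes of each subgroup, genes called between genotypes at a mean of 20 CPM or more without overlap, and Fosl2, Cyp19a1 and Plb1. Socs1, Egr4, Bub1, Gm36840 and the genes named beside counts of 5 or fewer were chosen after their values were seen. List genes were counted at 5 CPM or more, and the values of some are not reported here.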

Additional observations from a re-analysis of the deposited data

How the results depend on the processing

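The difference in member share kept its direction in all 14 alternatives and without any 1 library ranged from 0.151 to 10.1 percentage points. The count of 25 genes called in the members (14 higher, 11 lower) became 139 (95 and 44) with DESeq2, 620 (322 and 298) without a filter on low counts, 7 at an adjusted p under 0.05, 7 with a GC trend removed, 8 at under 5% mitochondrial UMIs, 7 without cells of a high doublet score, 10 in subgroups 1, 2 and 4, 39 in subgroups 1 and 4 and 2 (Plb1 and Cebpd) in subgroup 2, and 0 to 267 without 1 library. Members thinned to 2000 UMIs gave 27 calls (22 and 5). The 7 at an adjusted p under 0.05 and the 7 with the GC trend removed were Plb1 and Cebpd, higher, and Akr1c18, Cdkn2b, Onecut2, Ptgfr and Trpm6, lower. The 7 without cells of a high doublet score were Plb1 and Cebpd, higher, and Akr1c18, Cdkn2b, Lpcat2, Onecut2 and Trpm6, lower. S100a4, Tnc and Nupr1 were in none of these sets. Over called genes and alternatives the sign was kept in 552 cases and turned in 5, which were Lpcat2 in subgroups 1 and 4 (0.10), Slc26a7 in subgroups 1, 2 and 4 (-0.86), subgroups 1 and 4 (-0.94) and subgroup 2 (-0.65), and Bub1 in subgroups 1, 2 and 4 (-0.45). The 10 calls of subgroups 1, 2 and 4 became 32 with DESeq2, 6 with RLE size factors, 242 without the filter, 3 at an adjusted p under 0.05 (Cebpd, Plb1 and Tmem160), 6 with the GC trend removed and 0 to 115 without 1 library. The 0 calls against theca cells became 4 with DESeq2, 72 without the filter and 0 to 159 without 1 library, and the 0 against luteal cells 28, 27 and 0 to 15. Samples of the 2 genotypes share only a replicate number. With that number as a replicate block there were 134 calls (75 higher, 59 lower) in the members and 80 (63 and 17) in subgroups 1, 2 and 4, and deviations of same-numbered libraries correlated at -0.03 over 7379 genes in the members and 0.25 over 6886 genes in the subgroups. The causes of these changes were not tested. Depth limits what can be said of single cells in the shallow Fosl2F/F library. Genes below a few CPM rest on few UMIs, and summed UMIs were fewest in the first Fosl2F/F library. It held 7989750 in the members and 3006333 in subgroups 1, 2 and 4, against 18791746 and 8379528 in the shallow library.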
